A study of Sus scrofa with 10 samples.

Results

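Pig livers that had failed after partial hepatectomy, and whose animals had been connected to a bioartificial liver device holding no cells, were compared with normal pig liver by RNA sequencing. A bioartificial liver (BAL) passes blood or plasma outside the body through a device, usually one loaded with living hepatocytes. In the study it was loaded with human induced hepatocytes to treat post-hepatectomy liver failure (PHLF), and the empty device (Empty-BAL) was the control for the passage of blood. All animals were Sus scrofa of wild-type genotype, and age and strain were not among the labels. The comparison used 2 Empty-BAL libraries at day 3 and 3 Control (normal liver) libraries at day 0, so device, liver failure and time cannot be told apart here. The study's other 5 libraries, 2 of failed liver with no device (No-BAL, day 2) and 3 of livers treated with the cell-filled device, entered the fit for the estimate of spread. Members were all genes with at least 1 FPKM (fragments normalised to transcript length and to the library's mapped fragments) in at least 2 of the 10 libraries, 12180 of the 31905 in the table. Whether the libraries of 1 group are separate animals is not in the labels. The p-values below then reflect library-to-library spread alone, which may be technical. The labels give hepatocyte as cell type but liver as tissue and source. Because these are bulk samples, fewer cells of a type and less RNA per cell cannot be told apart.

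Hepatocytes make most plasma proteins, detoxify ammonia through the urea cycle, synthesise bile acids, and store and release glucose. These functions depend on a network of liver-enriched transcription factors headed by HNF4A. After hepatectomy the remaining hepatocytes normally re-enter the cell cycle, and Kupffer cells, recruited leukocytes, endothelial cells and stellate cells supply cytokines, growth factors and matrix. Failure follows when the remnant cannot carry the metabolic load.

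The libraries of normal liver were much closer to each other than those of Empty-BAL. Pearson's r of log2(FPKM + 1) across the tested genes was 0.992 to 0.994 between Control libraries and 0.893 between Empty-BAL-1 and Empty-BAL-2, where genes are not independent replicates. On the log2 scale the SD of a gene averaged 0.118 within Control and 0.449 within Empty-BAL. Of the 4483 genes averaging 10 FPKM or more in Empty-BAL, 1312 (29.3%) differed by at least 2-fold between its libraries, against 8 of 4673 between Control-1 and Control-2. FPKM summed to 823762 to 829970 in Control and to 496390 and 439925 in Empty-BAL. Rescaling every library to the same sum therefore moved the median difference of all genes from -0.03 to 0.65 log2 units. All 8 hepatocyte markers used to check the label were expressed in Control and lower in both Empty-BAL libraries, with summed levels of 87122 to 89859 FPKM in Control and 3816 and 7637 FPKM in Empty-BAL. The order of such paired values is Empty-BAL-1 then Empty-BAL-2 throughout, and depth is unknown because only FPKM were used.

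Most expressed genes differed between the empty-device livers and normal liver. By limma, 6540 of 12180 genes passed an adjusted p (Benjamini-Hochberg) of 0.05, which is 53.7% of the genes tested. Of these, 2967 (24.4%) rose and 3573 (29.3%) fell, and 4050 (33.3%) changed by at least 2-fold. Both Empty-BAL libraries lay above all 3 Control libraries for 4162 genes (34.2%) and below them for 4690 (38.5%). Of the 6540 called genes, 6539 had both Empty-BAL values beyond every Control value. For a called gene, lack of overlap with Control is therefore not a further result, and this holds for every called gene named below. Empty-BAL-1 was the further from Control for 4600 of the 6540 called genes. In 1451 of the 12180 tested genes the Empty-BAL libraries lay beyond Control on opposite sides. Counted separately, 32 tested genes differed from the Control mean by at least 2-fold in opposite directions. Rises made up 45.4% of calls as deposited, 57.0% with upper-quartile scaling and 77.4% with libraries rescaled to the same sum. With the near-identical Control libraries averaged to 1 sample, as were the day 8 libraries of the cell-filled device, 689 genes were called, 163 higher and 526 lower.

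**Figure D1:**
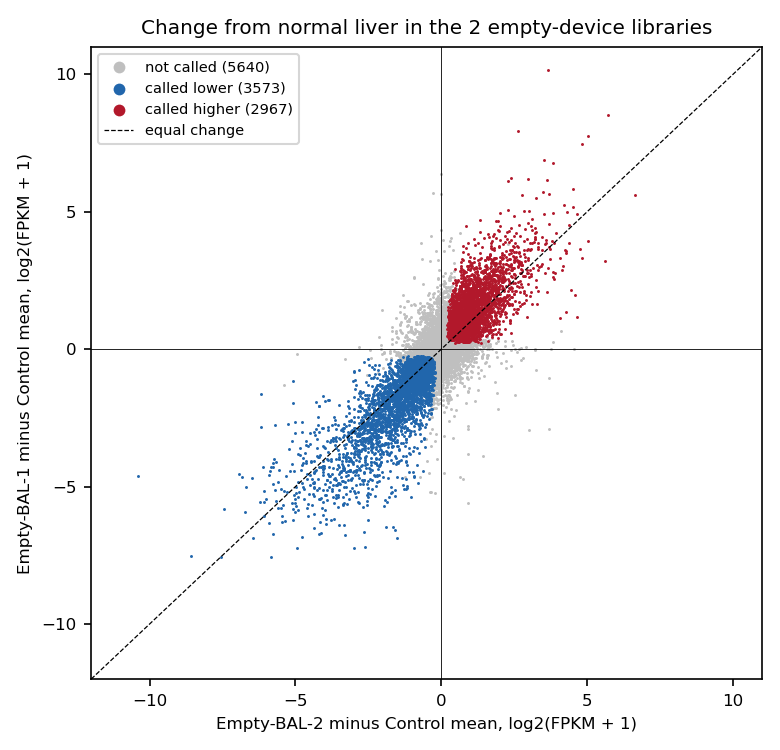
Each point is 1 of 12180 genes, placed by its difference from the Control mean in Empty-BAL-2 (horizontal axis) and in Empty-BAL-1 (vertical axis), both in log2(FPKM + 1). The 2967 genes called higher (red) and 3573 called lower (blue) lie to the upper right and lower left, and many blue points lie under the dashed line of equal change, where Empty-BAL-1 is the lower.

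The largest rises included several genes of small S100 calcium-binding proteins, ranked by log2 difference among called genes whose higher group averaged 10 FPKM or more. This ranking and that of the falls took only genes with both Empty-BAL values outside the Control range on the same side. Lack of overlap in these genes was therefore fixed by the selection. S100A12 (chr4:96225691-96227030), a calgranulin of neutrophils, measured 0, 0.727 and 0 FPKM in Control and 443 and 63 FPKM in Empty-BAL (log2 difference 7.13 ± 0.98 (SE), adjusted p = 0.000724). S100A8 (chr4:96209670-96210603), a further calgranulin, was listed at 0 in all 3 Control libraries and at 175 and 27.6 FPKM in Empty-BAL. Empty-BAL-1 was the higher library for both genes. S100A6 (chr4:96098264-96099686), a calcium-binding protein of dividing and motile cells, measured 3.56, 4.96 and 2.37 FPKM in Control and 219 and 446 FPKM in Empty-BAL (log2 difference 6.12 ± 0.50 (SE), adjusted p = 6.77e-05), with Empty-BAL-2 the higher. S100A11 measured 18.5, 19.7 and 13.1 FPKM in Control and 681 and 328 FPKM in Empty-BAL. S100A2 measured 0.344, 0.263 and 0.509 FPKM in Control and 20.2 and 43.6 FPKM in Empty-BAL. TIMP1 (chrX:42103251-42106289), the inhibitor of matrix metalloproteinases, measured 23.5, 23.7 and 23.6 FPKM in Control and 2706 and 351 FPKM in Empty-BAL (log2 difference 5.31 ± 0.81 (SE), adjusted p = 0.00118). Its 2 Empty-BAL values lay far apart.

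The other leading rises were in genes of varied function. SLC11A1, a phagosomal metal transporter of macrophages, measured 0.764, 0.401 and 0.653 FPKM in Control and 189 and 17.6 FPKM in Empty-BAL. LGALS1, the galactose-binding lectin galectin-1, measured 22.9, 20.8 and 25.5 FPKM in Control and 1721 and 295 FPKM in Empty-BAL. GMFG, an actin regulator of leukocytes, measured 19.1, 13.8 and 10.2 FPKM in Control and 782 and 166 FPKM in Empty-BAL. All 3 were higher in Empty-BAL-1 than in Empty-BAL-2. UBE2C, the ubiquitin-conjugating enzyme of the anaphase-promoting complex, differed little between the Empty-BAL libraries, at 1.1, 2.19 and 1.83 FPKM in Control and 79.3 and 66.4 FPKM in Empty-BAL (log2 difference 4.79 ± 0.28 (SE), adjusted p = 1.56e-05). The fatty acid-binding protein genes FABP5 (0.805 to 1.59 against 114 and 28.4 FPKM) and FABP4 (0 to 0.105 against 75 and 7.19 FPKM) and the atypical chemokine receptor gene ACKR1 (0 to 0.861 against 41 and 24.9 FPKM) complete the coding genes that had some Control signal. RCN3, an endoplasmic reticulum calcium-binding protein, was listed at 0 in Control and at 247 and 5.26 FPKM in Empty-BAL. An entry for the small nucleolar RNA U3, a symbol that 22 entries share, was also listed at 0 in Control, and at 1136 and 11.7 FPKM in Empty-BAL. Empty-BAL-1 held the higher value for 13 of these 15 genes. With Control averaged, 5 of the 15 passed the threshold. RCN3 was not called without Empty-BAL-1 (adjusted p = 0.12) and without any one Control library (0.0521 to 0.0529).

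The deepest falls were in genes of hepatocyte enzymes and secreted proteins. CA3 (chr4:51227485-51237861), a cytosolic carbonic anhydrase, measured 399, 402 and 394 FPKM in Control and 1.15 and 0.0355 FPKM in Empty-BAL (log2 difference -8.06 ± 0.29 (SE), adjusted p = 2.75e-06). CYP2A19 (chr6:49056579-49064111), a pig cytochrome P450, measured 5609, 5582 and 5439.8 FPKM in Control and 226 and 3.14 FPKM in Empty-BAL (log2 difference -7.5 ± 1.42 (SE), adjusted p = 0.0032). Empty-BAL-1 kept more of the CYP2A19 signal, the opposite order to most hepatocyte genes. SERPINA6 (chr7:115535552-115554536), the corticosteroid-binding globulin, measured 216, 222 and 209 FPKM in Control and 0.836 and 1.47 FPKM in Empty-BAL (log2 difference -6.67 ± 0.21 (SE), adjusted p = 2.06e-06). CYP2D6 measured 4825, 4787 and 4779 FPKM in Control and 44.8 and 87.3 FPKM in Empty-BAL (log2 difference -6.24 ± 0.37 (SE), adjusted p = 1.83e-05). TF, transferrin, which carries iron in plasma, measured 9798, 9365 and 9714 FPKM in Control and 63.2 and 309 FPKM in Empty-BAL (log2 difference -6.09 ± 0.57 (SE), adjusted p = 0.000122). In each of these genes both Empty-BAL values were under 5% of every Control value.

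PVALB, the calcium buffer parvalbumin, was listed at 0 in both Empty-BAL libraries and at 67.7, 69.1 and 61.3 FPKM in Control. HSD17B6, a steroid and retinoid dehydrogenase, measured 200.3, 203 and 193 FPKM in Control and 1.49 and 2.31 FPKM in Empty-BAL. ACSM4, a medium-chain acyl-CoA synthetase, measured 445, 438 and 455 FPKM in Control and 8.41 and 5.05 FPKM in Empty-BAL. APOF, an apolipoprotein, measured 578, 595 and 567 FPKM in Control and 6.5 and 12.3 FPKM in Empty-BAL. In these genes the 2 Empty-BAL values differed little beside the distance from Control. HRG (histidine-rich glycoprotein) measured 2773 to 3058 against 90.3 and 27.4 FPKM, PON1 (paraoxonase of high-density lipoprotein) 514 to 526 against 9.99 and 6.81 FPKM, and PCYOX1 (prenylcysteine oxidase) 247 to 257 against 2.34 and 5.25 FPKM. IGFALS, which holds insulin-like growth factors in the circulation, measured 187 to 198 against 1.89 and 3.44 FPKM. HPX, hemopexin, the plasma carrier of heme, measured 7332 to 7874 against 324 and 62 FPKM. FOSB, an immediate early transcription factor, measured 336, 337 and 338 FPKM in Control and 6.65 and 4.32 FPKM in Empty-BAL (log2 difference -5.73 ± 0.18 (SE), adjusted p = 2.06e-06). With Control averaged, 13 of the 15 leading falls still passed, against the 5 of 15 leading rises.

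**Figure D2:**
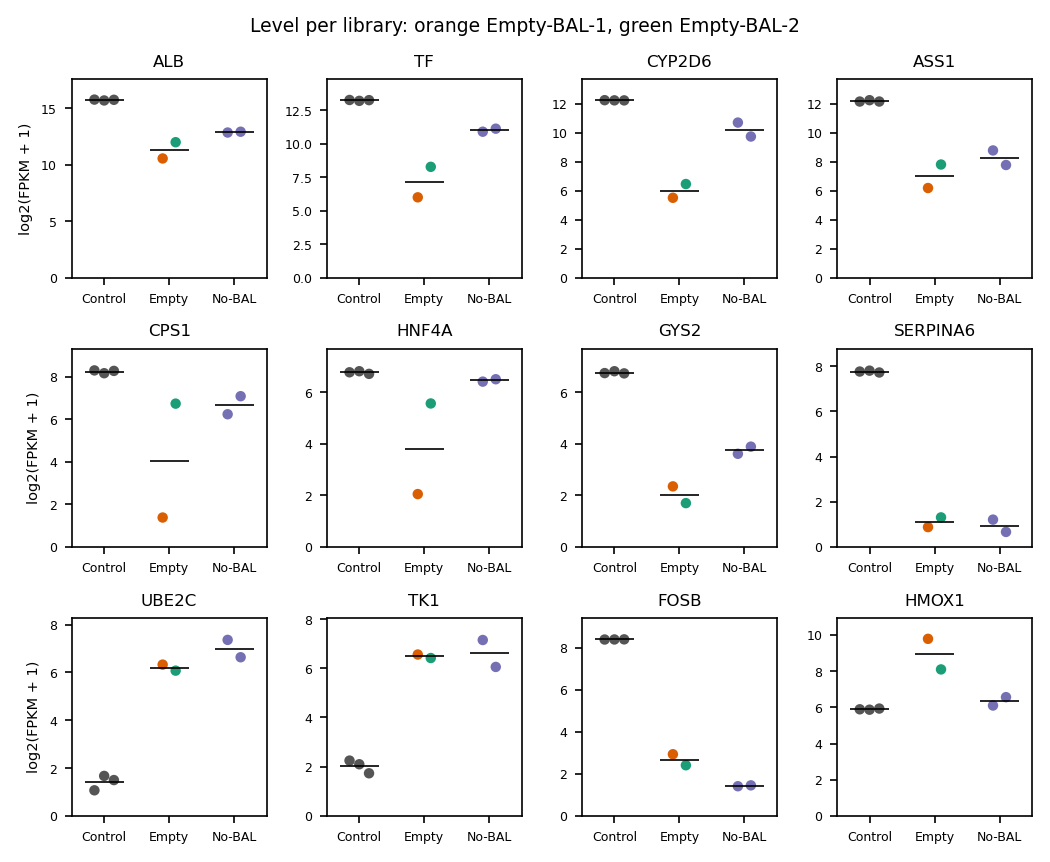
Level in log2(FPKM + 1) per library for 12 named genes in Control (3 grey points), Empty-BAL (orange for library 1, green for library 2) and No-BAL (2 purple points), with horizontal bars at group means. ALB, TF, CYP2D6 and ASS1 lie far under Control in both Empty-BAL libraries, CPS1 and HNF4A are split between them, and UBE2C, TK1 and HMOX1 lie above Control.

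Hepatocyte function was then read through 11 lists covering plasma proteins, coagulation, complement, urea and amino acid metabolism, gluconeogenesis, drug metabolism, bile acids, fatty acid oxidation and liver transcription factors. Of their 179 distinct tested members, 167 fell and 1 rose, with a median log2 difference of -3.56, beside 29.3% of all genes called lower and a median of -0.03. Empty-BAL-1 was the lower library for 141 of the 179, against 6000 of all 12180 genes. The members' median difference from Control was -4.27 in Empty-BAL-1 and -2.77 in Empty-BAL-2. The lists were described by counts and medians only. All list counts against Control stand beside 24.4% of all genes called higher and 29.3% called lower. Where 5 or fewer members of a list went against the rest, those named outside the rule in the methods were chosen after their values were seen.

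Plasma carriers and apolipoproteins fell almost throughout, 22 of 23 tested (median log2 difference -4.22, -4.55 in Empty-BAL-1 and -4.19 in Empty-BAL-2). ALB, albumin, the most abundant plasma protein, measured 55098, 52275 and 54412 FPKM in Control and 1498 and 4057 FPKM in Empty-BAL (log2 difference -4.45 ± 0.45 (SE), adjusted p = 0.000177). Its share of all FPKM was 6.35% to 6.64% in Control, 0.302% in Empty-BAL-1 and 0.922% in Empty-BAL-2. TTR, which carries thyroid hormone and retinol-binding protein, measured 8112, 9062 and 8649 FPKM in Control and 253 and 188 FPKM in Empty-BAL. APOB, the structural protein of very-low-density lipoprotein, measured 241, 236 and 242 FPKM in Control and 1.23 and 23.8 FPKM in Empty-BAL. On the log2 scale each of these mean falls exceeded the difference between the Empty-BAL libraries. APOB was far lower in Empty-BAL-1 than in Empty-BAL-2. The member that was not called, APOA2, an apolipoprotein of high-density lipoprotein, measured 434, 393 and 413 FPKM in Control and 17.3 and 438 FPKM in Empty-BAL, at the Control level in Empty-BAL-2. AFP, the fetal counterpart of albumin, did not reach the filter: it was listed at 0 in Control and at 0.568 and 0.770 FPKM in Empty-BAL.

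All 19 tested coagulation and fibrinolysis genes fell (median log2 difference -4.03, -4.64 in Empty-BAL-1 and -3.65 in Empty-BAL-2). PROC, the zymogen of the anticoagulant protein C, measured 1763, 1699 and 1706 FPKM in Control and 52 and 53.2 FPKM in Empty-BAL (log2 difference -5.01 ± 0.34 (SE), adjusted p = 3.03e-05). PLG, plasminogen, the precursor of the clot-dissolving enzyme, measured 2074, 1984 and 2087 FPKM in Control and 36.2 and 119.9 FPKM in Empty-BAL. FGB, the fibrinogen beta chain, measured 6022, 5880.2 and 5951 FPKM in Control and 218 and 942 FPKM in Empty-BAL. Pro- and anticoagulant genes were both low: SERPINC1, antithrombin, measured 2451 to 2528 against 62 and 161 FPKM, F13B 60.7 to 61.8 against 0.594 and 2.97 FPKM and KNG1, kininogen, 549 to 555 against 16.2 and 37.3 FPKM. Of 16 complement and lectin pathway genes 15 fell (median log2 difference -3.86, -4.51 in Empty-BAL-1 and -3.21 in Empty-BAL-2). MBL2, mannose-binding lectin, measured 162, 182 and 177 FPKM in Control and 6.04 and 0.549 FPKM in Empty-BAL. C8B, of the membrane attack complex, measured 537, 508 and 538 FPKM in Control and 19.4 and 4.96 FPKM in Empty-BAL. The exception was C7, a further component of that complex, which rose from 30.2 to 32.2 FPKM in Control to 52.9 and 115 in Empty-BAL (log2 difference 1.29 ± 0.40 (SE), adjusted p = 0.0284). C7 was not called without Empty-BAL-2 (adjusted p = 0.147) and without any one Control library (0.0669 to 0.0741). With Control averaged, 7 plasma carrier, 10 coagulation and 3 complement genes were called lower.

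Acute phase genes, which the liver raises in inflammation, split: 5 of 8 fell, 1 rose and 2 were not called. CRP, C-reactive protein, measured 372, 387 and 368 FPKM in Control and 20.3 and 135 FPKM in Empty-BAL. LBP, the lipopolysaccharide-binding protein, measured 91, 84.2 and 85.3 FPKM in Control and 4.17 and 15.5 FPKM in Empty-BAL. CP, ceruloplasmin, measured 403 to 413 against 6.4 and 11.06 FPKM, and FGL1 155 to 163 against 7.2 and 1.94 FPKM. ITIH4, the major acute phase protein of pigs, measured 766, 772 and 768 FPKM in Control and 177 and 225 FPKM in Empty-BAL (log2 difference -1.94 ± 0.42 (SE), adjusted p = 0.0059). All of these lay under Control in both libraries. LCN2, lipocalin 2, a siderophore-binding protein of neutrophils and stressed epithelia, rose, at 0.723, 0.683 and 0.693 FPKM in Control and 20.3 and 13.5 FPKM in Empty-BAL (log2 difference 3.37 ± 0.22 (SE), adjusted p = 2.53e-05). HAMP (chr6:44785863-44787303), hepcidin, the hormone that limits iron release, measured 44.6, 37.8 and 38.3 FPKM in Control and 4.39 and 328 FPKM in Empty-BAL, so the 2 Empty-BAL libraries lay on opposite sides of Control and no common direction can be given. CRP was not called without Empty-BAL-1 (adjusted p = 0.115) and without any one Control library (0.0516 to 0.0539).

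Genes of the urea cycle and ammonia handling fell in 8 of 10 (median log2 difference -2.95, -4.35 in Empty-BAL-1 and -1.43 in Empty-BAL-2). CPS1 (chr15:113210038-113339086), the entry enzyme of the cycle, measured 311, 284 and 306 FPKM in Control and 1.6 and 105 FPKM in Empty-BAL (log2 difference -4.18 ± 1.27 (SE), adjusted p = 0.0249). OTC, which makes citrulline, measured 334, 328 and 334 FPKM in Control and 5.41 and 9.68 FPKM in Empty-BAL (log2 difference -5.33 ± 0.26 (SE), adjusted p = 7.94e-06). ASS1, which joins citrulline to aspartate, measured 4499, 4800.2 and 4502 FPKM in Control and 71.8 and 222 FPKM in Empty-BAL (log2 difference -5.17 ± 0.49 (SE), adjusted p = 0.000127). OTC and ASS1 were low in both libraries, whereas CPS1 was near 0 in Empty-BAL-1 and less reduced in Empty-BAL-2. CPS1 was not called without any one Control library (adjusted p = 0.0589 to 0.0613). ARG1, arginase, the last step, was not called, at 435, 434 and 424 FPKM in Control and 16.4 and 680.0 FPKM in Empty-BAL, under Control in one library and above it in the other. GLUL, glutamine synthetase, was not called either (218 to 229.9 against 69.7 and 185 FPKM, adjusted p = 0.0881).

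Amino acid breakdown showed the same picture, with 21 of 23 lower (median log2 difference -3.56, -4.4 in Empty-BAL-1 and -2.67 in Empty-BAL-2). SARDH and DMGDH, mitochondrial enzymes of choline breakdown, measured 195 to 221 against 8.91 and 3.46 FPKM and 139.8 to 142 against 2.24 and 6.77 FPKM. MAT1A, which makes the methyl donor S-adenosylmethionine, measured 427, 417 and 419 FPKM in Control and 16.9 and 24.4 FPKM in Empty-BAL. TDO2, the first enzyme of tryptophan breakdown, measured 352, 362 and 355 FPKM in Control and 11.11 and 30.5 FPKM in Empty-BAL. BHMT, betaine-homocysteine methyltransferase, measured 1187, 1163 and 1156 FPKM in Control and 12.1 and 311 FPKM in Empty-BAL. The first 4 were low in both libraries and BHMT kept more in Empty-BAL-2. The uncalled members were HPD (1039 to 1086 against 41.5 and 645 FPKM), of tyrosine breakdown, and SDS (15.3 to 17.4 against 12.1 and 112 FPKM), serine dehydratase, which was under Control in Empty-BAL-1 and far above it in Empty-BAL-2.

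All 14 gluconeogenesis and glycogen genes fell (median log2 difference -3.3, -4.41 in Empty-BAL-1 and -2.27 in Empty-BAL-2). GYS2, liver glycogen synthase, measured 106, 111 and 105 FPKM in Control and 4.09 and 2.24 FPKM in Empty-BAL (log2 difference -4.74 ± 0.21 (SE), adjusted p = 5.93e-06). FBP1, fructose-1,6-bisphosphatase, measured 570.2, 564 and 568 FPKM in Control and 6.69 and 98.1 FPKM in Empty-BAL. SLC2A2, the hepatocyte glucose transporter, measured 111 to 114 against 1.47 and 18.6 FPKM. Isoforms of glycolysis typical of dividing cells moved the other way: of 14 genes of that list, which also holds hypoxia targets, 8 rose and 2 fell. PKM, pyruvate kinase of muscle and dividing cells, measured 15.6, 15.1 and 15.7 FPKM in Control and 316 and 40.8 FPKM in Empty-BAL (log2 difference 2.8 ± 0.70 (SE), adjusted p = 0.0112). HK1, the widely expressed hexokinase, measured 5.66 to 6.3 against 52.8 and 10.3 FPKM and PFKP, the platelet-type phosphofructokinase, 2.38 to 3.2 against 24.4 and 13.5 FPKM. VEGFA, the hypoxia-induced endothelial growth factor, fell (159.8 to 175 against 22.4 and 8.92 FPKM, adjusted p = 0.000122), as did PDK1 (4.89 to 5.38 against 2.88 and 3.09 FPKM), so the hypoxia targets of the list did not move as one. In the glycolysis and hypoxia list, calls numbered 5 for higher levels without Control-1, Control-2 or Control-3. With Control averaged the list had 0 higher, with 2 at an unadjusted p under 0.05 by limma, and 1 lower. HK1 was not called without any one Control library (adjusted p = 0.0538 to 0.0604). PDK1 was not called without Empty-BAL-1 (adjusted p = 0.0531) and without Control-1 or Control-2 (0.0554 to 0.0611).

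Drug and alcohol metabolism showed the lowest median of all lists (median log2 difference -4.66, -5.29 in Empty-BAL-1 and -3.51 in Empty-BAL-2), with 15 of 16 lower. FMO5, a flavin monooxygenase, measured 140.2, 139.6 and 144 FPKM in Control and 1.57 and 2.19 FPKM in Empty-BAL (log2 difference -5.63 ± 0.32 (SE), adjusted p = 1.50e-05). CYP2B22 measured 84.7, 90.6 and 81.4 FPKM in Control and 0.974 and 2.33 FPKM in Empty-BAL. CYP1A2 measured 596, 589.8 and 586 FPKM in Control and 6.93 and 42 FPKM in Empty-BAL. The member not called, ALDH1A1, an aldehyde and retinal dehydrogenase, measured 948, 938 and 967 FPKM in Control and 24.8 and 724 FPKM in Empty-BAL, a drop seen in Empty-BAL-1 and nearly absent in Empty-BAL-2. Reads of near-identical cytochrome P450 paralogs may have been split between genes, so the values of single P450 genes are uncertain. With Control averaged, the calls were 3 urea cycle, 7 amino acid, 1 glucose and 6 drug metabolism genes, all lower.

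All 9 bile acid synthesis genes fell (median log2 difference -3.28, -3.58 in Empty-BAL-1 and -2.79 in Empty-BAL-2). CYP7A1, the rate-limiting enzyme, measured 33.7, 32.3 and 34.1 FPKM in Control and 1.03 and 0.562 FPKM in Empty-BAL (log2 difference -4.27 ± 0.15 (SE), adjusted p = 2.34e-06). AKR1D1, which reduces the steroid ring, measured 382, 371 and 389 FPKM in Control and 3.18 and 17.5 FPKM in Empty-BAL. SLC27A5, the bile acid-CoA ligase, measured 1295, 1325 and 1227 FPKM in Control and 52.9 and 20.2 FPKM in Empty-BAL. Among transporters of bile acids and organic anions 10 of 13 fell. SLC10A1, the basolateral uptake carrier of bile acids, measured 67.9, 68.2 and 68.8 FPKM in Control and 5.03 and 1.94 FPKM in Empty-BAL. ABCB11, the canalicular export pump, measured 55.6, 57.4 and 55.2 FPKM in Control and 0.889 and 7.22 FPKM in Empty-BAL. SLC10A1 and ABCB11 were both under Control in both libraries. The sterol exporter gene ABCG8 measured 47.1 to 49.1 against 0.838 and 8.56 FPKM. Not called were the exporter gene ABCC3 (4.53 to 5.38 against 1.1 and 6.45 FPKM) and the 2 chains of the basolateral bile acid exporter, SLC51A (0.0577 to 0.133 against 0.093 and 24.4 FPKM) and SLC51B (0.194 to 0.842 against 0.0585 and 5.27 FPKM), which were above Control in Empty-BAL-2 only. In the transporter list, calls numbered 2 for higher levels without Empty-BAL-1.

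Fatty acid oxidation and ketogenesis genes fell in 20 of 20 (median log2 difference -2.33, -3.08 in Empty-BAL-1 and -1.754 in Empty-BAL-2). BDH1, which makes beta-hydroxybutyrate, measured 133, 129 and 126 FPKM in Control and 0.789 and 9.2 FPKM in Empty-BAL (log2 difference -4.93 ± 0.63 (SE), adjusted p = 0.000504). ACAA2, the mitochondrial thiolase, measured 457 to 479 against 13.3 and 22 FPKM, and ACSL1, which activates long-chain fatty acids, 426 to 429.9 against 7.98 and 32.7 FPKM. Synthesis genes fell as well, 17 of 21 (median log2 difference -2.15, -1.98 in Empty-BAL-1 and -2.05 in Empty-BAL-2). ELOVL6, a fatty acid elongase, measured 55.8, 55.8 and 61.2 FPKM in Control and 0.751 and 2.19 FPKM in Empty-BAL. INSIG1, which restrains sterol synthesis, measured 458 to 489.5 against 15.3 and 16.2 FPKM. Both were lower in each Empty-BAL library than in Control. ACLY (9.3 to 9.54 against 10.8 and 11.8 FPKM), SCD (14.9 to 16.3 against 17.4 and 2.93 FPKM), ME1 (0.481 to 0.868 against 1.08 and 1.62 FPKM) and FDPS (49.7 to 51.3 against 58.2 and 54.6 FPKM) were not called.

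Lipid droplet genes were mixed, with 8 of 13 lower and 2 higher. DGAT2, which makes triglyceride, measured 84.9, 72.1 and 77.3 FPKM in Control and 0.45 and 0.627 FPKM in Empty-BAL (log2 difference -5.68 ± 0.17 (SE), adjusted p = 2.06e-06). MTTP, which loads lipid on apolipoprotein B, measured 88.1 to 92.4 against 0.716 and 13.5 FPKM. PLIN2, the general droplet coat protein, rose (22 to 24.5 against 53.8 and 185 FPKM, log2 difference 2.07 ± 0.44 (SE), adjusted p = 0.00532), and so did PNPLA2, the main triglyceride lipase (52.4 to 53.8 against 99.3 and 71.1 FPKM, log2 difference 0.65 ± 0.19 (SE), adjusted p = 0.0207). PNPLA2 was not called without any one Control library (adjusted p = 0.0633 to 0.07). With Control averaged, 5 bile acid synthesis and 6 fatty acid oxidation genes were called lower.

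**Figure D3:**
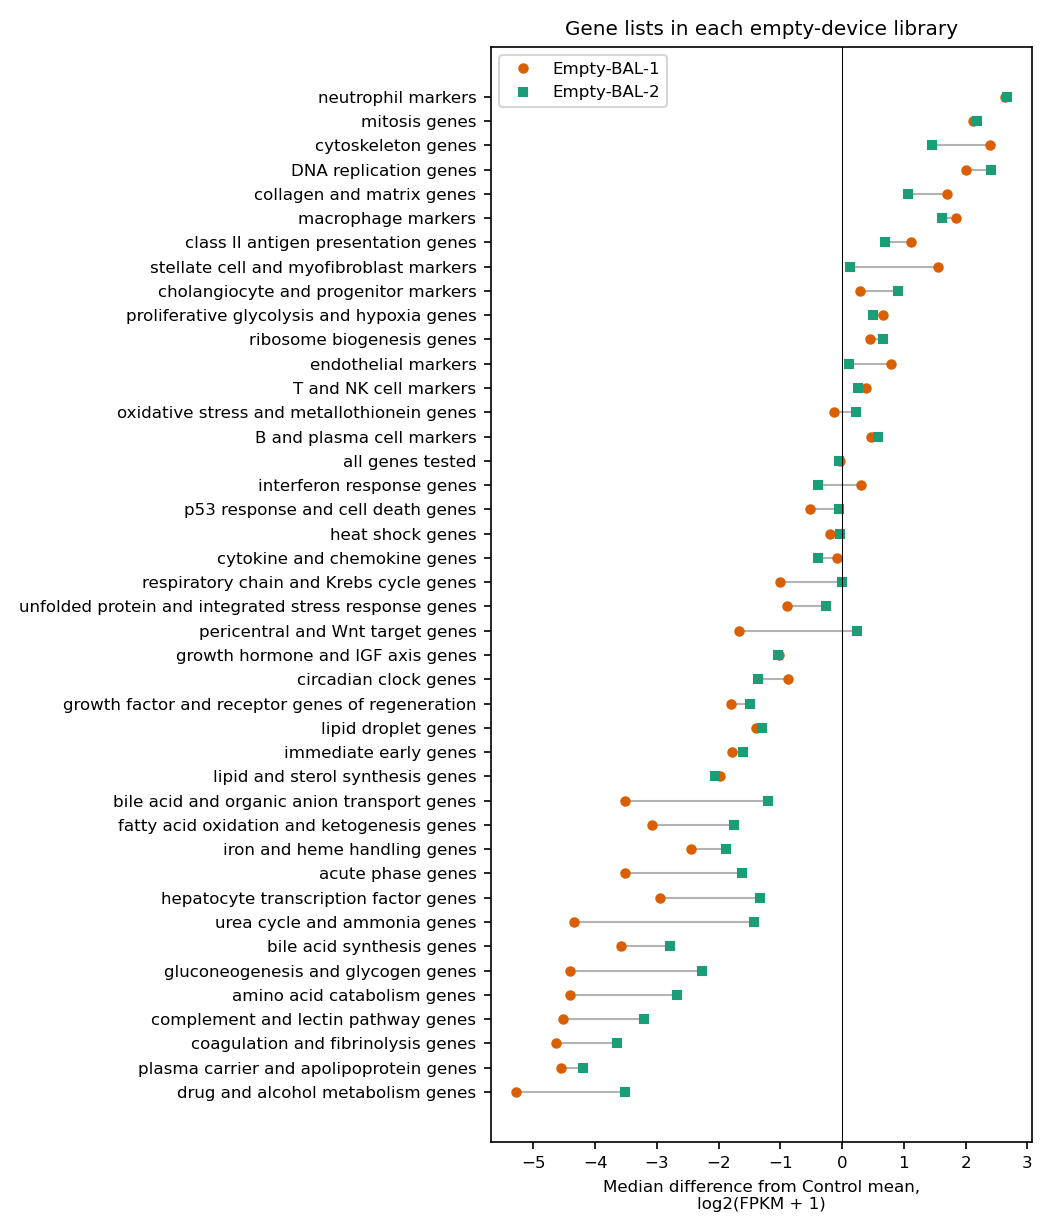
For each gene list (rows) the median over its tested members of the difference from the Control mean, in log2(FPKM + 1), is shown for Empty-BAL-1 (orange circles) and Empty-BAL-2 (green squares). Lists of hepatocyte function lie far to the left in both libraries and further so in Empty-BAL-1 (urea cycle -4.35 against -1.43), while mitosis, replication, cytoskeleton, matrix and macrophage lists lie to the right.

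Liver transcription factor genes fell in 14 of 16 (median log2 difference -2.38, -2.95 in Empty-BAL-1 and -1.33 in Empty-BAL-2). HNF4A, the nuclear receptor at the head of the network, measured 109, 112 and 105 FPKM in Control and 3.15 and 46.5 FPKM in Empty-BAL (log2 difference -2.96 ± 0.83 (SE), adjusted p = 0.0182). FOXA2, a pioneer factor, measured 45.7, 37.2 and 45.1 FPKM in Control and 1.76 and 3.54 FPKM in Empty-BAL. NR1I3, the constitutive androstane receptor, measured 52.9 to 53.1 against 0.622 and 8.39 FPKM, NR0B2, the small heterodimer partner, 68.5 to 71.3 against 1.26 and 30.3 FPKM, and ATF5 527 to 549 against 25.2 and 44.2 FPKM. HNF4A and NR0B2 were low mainly in Empty-BAL-1, FOXA2 in both. CEBPA (19.2 to 24.8 against 31.3 and 16.8 FPKM) and CEBPB (158 to 256 against 357 and 104 FPKM), basic leucine zipper factors of liver differentiation and the acute phase, were not called, and both were above Control in Empty-BAL-1 and below it in Empty-BAL-2. NR0B2 was not called without any one Control library (adjusted p = 0.0528 to 0.0549).

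Of 7 growth hormone and IGF axis genes 5 fell and none rose. GHR, the growth hormone receptor, measured 56.8, 50.9 and 56.1 FPKM in Control and 0.373 and 1.68 FPKM in Empty-BAL (log2 difference -4.86 ± 0.27 (SE), adjusted p = 1.29e-05). IGFBP1, an insulin-regulated binding protein, measured 1759, 1528 and 1742 FPKM in Control and 15.8 and 267 FPKM in Empty-BAL. The falls of IGFBP2 (513 to 527 against 258 and 364 FPKM) and STAT5B (16 to 17.3 against 12.7 and 9.32 FPKM) were within the shift of scale and turned to 0.06 and 0.20 log2 units with libraries rescaled to the same sum. IGFBP2 was not called without Empty-BAL-1 (adjusted p = 0.0856) and without any one Control library (0.0891 to 0.0964). STAT5B was not called without Empty-BAL-2 (adjusted p = 0.0548) and without any one Control library (0.0589 to 0.0753). In the growth hormone and IGF axis list, calls numbered 3 for lower levels without Control-1, Control-2 or Control-3. Not called were IGF1 (3.83 to 7.11 against 17.5 and 1.99 FPKM) and IGFBP4 (99 to 106 against 58.1 and 57.9 FPKM). In the pericentral and Wnt target list 4 of 10 fell and 2 rose, with medians of -1.67 in Empty-BAL-1 and 0.25 in Empty-BAL-2. LECT2, a hepatocyte chemotactic factor, measured 583, 550.4 and 583 FPKM in Control and 18.1 and 96.6 FPKM in Empty-BAL, while the Wnt ligand gene WNT2 of liver endothelium rose (0.141, 0.213 and 0.265 FPKM in Control and 2.4 and 1.98 FPKM in Empty-BAL), as did RSPO3 (1.21 to 1.85 against 2.62 and 7.53 FPKM), an amplifier of Wnt signals. RSPO3 was not called without Empty-BAL-2 (adjusted p = 0.0717) and without Control-1 or Control-2 (0.0552 to 0.0671). In the pericentral and Wnt target list, calls numbered 4 for higher levels without Empty-BAL-1 and 8 for lower levels without Empty-BAL-2.

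Circadian clock genes fell in 10 of 16. DBP, a clock output factor, measured 42.4, 40.2 and 39.2 FPKM in Control and 2.76 and 0.684 FPKM in Empty-BAL (log2 difference -4.05 ± 0.32 (SE), adjusted p = 5.28e-05). BHLHE40, a repressor, measured 253, 260.5 and 254 FPKM in Control and 40.5 and 6.92 FPKM in Empty-BAL. PER2 measured 26.6, 29.9 and 26.3 FPKM in Control and 1.83 and 0.897 FPKM in Empty-BAL. NPAS2, a partner of BMAL1, rose (0.753 to 1.01 against 9.11 and 3.56 FPKM, adjusted p = 0.00134). The hour of sampling was not among the labels, so its part in these values was not tested.

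Cell cycle genes rose with little difference between the Empty-BAL libraries. Members under 1 FPKM in every Control library, which passed the filter through other libraries, numbered 18 of 25 tested mitosis genes and 8 of 24 replication genes. Such members could hardly be called lower, so the numbers called in these lists are not read as a result beside 24.4% of all genes. Of 25 tested mitosis genes 24 rose and none fell (median log2 difference 2.26, 2.12 in Empty-BAL-1 and 2.18 in Empty-BAL-2). All 24 DNA replication genes rose (median log2 difference 2.03, 2.0 in Empty-BAL-1 and 2.41 in Empty-BAL-2). CDC20, the activator of the anaphase-promoting complex, measured 0.877, 1.22 and 1.12 FPKM in Control and 28.9 and 29.4 FPKM in Empty-BAL (log2 difference 3.87 ± 0.17 (SE), adjusted p = 5.93e-06). MYBL2, a transcription factor of late cell cycle genes, measured 2.06, 2.73 and 2.5 FPKM in Control and 76.1 and 28 FPKM in Empty-BAL. BIRC5, survivin, measured 1.83, 1.91 and 2.55 FPKM in Control and 29.6 and 50.7 FPKM in Empty-BAL. AURKB, the chromosomal passenger kinase, measured 1.11, 0.908 and 0.446 FPKM in Control and 27.8 and 15.7 FPKM in Empty-BAL. In all of these both Empty-BAL values exceeded every Control value, which is not a further result in genes named among those called. The one mitosis gene not called was NUSAP1 (2.49 to 2.93 against 5.6 and 4.91 FPKM).

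TK1, the thymidine kinase of S phase, measured 3.75, 3.28 and 2.32 FPKM in Control and 93.1 and 84.3 FPKM in Empty-BAL (log2 difference 4.46 ± 0.31 (SE), adjusted p = 3.38e-05). CDT1, which licenses replication origins, measured 0.341, 0.552 and 0.624 FPKM in Control and 22.5 and 17 FPKM in Empty-BAL (log2 difference 3.78 ± 0.19 (SE), adjusted p = 7.94e-06). Subunits of the replicative helicase rose alike, with MCM4 at 1.69, 1.36 and 1.5 FPKM in Control and 32 and 31.9 FPKM in Empty-BAL, MCM5 at 0.963 to 1.749 against 31.3 and 25.9 FPKM and MCM3 at 0.44 to 0.746 against 18.5 and 16.7 FPKM. Summed over the mitosis list, levels were 17.4 to 19.6 FPKM in Control and 348 and 303 FPKM in Empty-BAL. With Control averaged, 9 mitosis and 8 replication genes were called higher. These numbers and the sum carry the same limit from the filter and are not read as a further result. Which cells carried these transcripts cannot be read from bulk liver.

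Ribosome biogenesis genes rose in 11 of 19 and fell in 2 (median 0.54). NPM3, a nucleoplasmin, measured 2.09, 2.0 and 2.64 FPKM in Control and 35.4 and 61.4 FPKM in Empty-BAL (log2 difference 3.88 ± 0.23 (SE), adjusted p = 1.78e-05). BOP1 measured 14.3, 16 and 14 FPKM in Control and 50.6 and 33.6 FPKM in Empty-BAL. DKC1, the pseudouridine synthase of box H/ACA particles, measured 12.3, 12.8 and 14 FPKM in Control and 30.7 and 33.8 FPKM in Empty-BAL. MYC, the growth-promoting transcription factor, fell, at 391, 391 and 395 FPKM in Control and 30.2 and 52.9 FPKM in Empty-BAL (log2 difference -3.26 ± 0.25 (SE), adjusted p = 5.09e-05), and so did POLR1A (6.7 to 7.22 against 4.1 and 5.66 FPKM), the largest subunit of RNA polymerase I, whose difference was within the shift of scale. POLR1A was not called without Empty-BAL-1 (adjusted p = 0.16) and without any one Control library (0.104 to 0.13). In the ribosome biogenesis list, calls numbered 7 for higher levels without Control-1.

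The medians of the respiratory chain, unfolded protein, heat shock and p53 lists changed sign with the scaling. Respiratory chain and Krebs cycle genes rose in 2 and fell in 5 of 19, with a median of -0.48 that became 0.33 with libraries rescaled to the same sum. The same rescaling turned the median of the unfolded protein and integrated stress response list from -0.65 to 0.17, of heat shock genes from -0.28 to 0.45 and of p53 response genes from -0.23 to 0.35, beside a shift of all genes from -0.03 to 0.65. Called members by the deposited scale numbered 2 higher and 6 lower of 19, 2 and 2 of 11, and 1 and 3 of 10 in that order. In the respiratory chain list, calls numbered 2 for lower levels without Control-1, Control-2 or Control-3 and 11 for lower levels without Empty-BAL-2. In the unfolded protein list, calls numbered 10 for lower levels without Empty-BAL-2. In the heat shock list, calls numbered 5 for lower levels without Empty-BAL-2. In the p53 response list, calls numbered 5 for lower levels without Empty-BAL-2.

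Single members still moved far beyond that shift. ATF3, a stress-induced transcription factor, measured 202, 200.2 and 199 FPKM in Control and 10.3 and 7.09 FPKM in Empty-BAL (log2 difference -4.4 ± 0.21 (SE), adjusted p = 6.81e-06). GADD45B, a growth arrest and stress gene, measured 234, 270.1 and 242 FPKM in Control and 43.9 and 12.5 FPKM in Empty-BAL. CDKN1A, the p21 cell cycle inhibitor, measured 72.1, 84.3 and 73.7 FPKM in Control and 12.9 and 38.3 FPKM in Empty-BAL. All 3 fell. CRELD2, a secreted endoplasmic reticulum stress protein, rose (15.9, 17.9 and 14.1 FPKM in Control and 66 and 55.3 FPKM in Empty-BAL). In the oxidative stress list 3 of 13 rose and 3 fell, beside 24.4% and 29.3% of all genes. Its median of 0.28 was 1.08 after the rescaling. In the oxidative stress list, calls numbered 5 for higher levels without Empty-BAL-1. HMOX1, heme oxygenase 1, which breaks down heme, measured 58.3, 57.4 and 60.0 FPKM in Control and 879.9 and 272 FPKM in Empty-BAL (log2 difference 3.04 ± 0.44 (SE), adjusted p = 0.000863). PRDX1, a peroxiredoxin, measured 41.5, 43.6 and 40.8 FPKM in Control and 314 and 293 FPKM in Empty-BAL (log2 difference 2.83 ± 0.23 (SE), adjusted p = 6.22e-05). CAT, catalase, measured 2143, 2124 and 2130.0 FPKM in Control and 19.2 and 116 FPKM in Empty-BAL (log2 difference -5.46 ± 0.66 (SE), adjusted p = 0.000402). SOD2, the mitochondrial superoxide dismutase, measured 136 to 148 against 21.4 and 78 FPKM. The genes that rose and those that fell therefore both included antioxidant enzymes. SOD2 was not called without Empty-BAL-1 (adjusted p = 0.0708) and without Control-1 or Control-2 (0.0517 to 0.0551).

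Immediate early genes, which respond within minutes to cell stimulation, fell in 13 of 18 (median log2 difference -1.86, -1.78 in Empty-BAL-1 and -1.6 in Empty-BAL-2). FOS measured 438, 458 and 443 FPKM in Control and 33 and 59.6 FPKM in Empty-BAL (log2 difference -3.3 ± 0.35 (SE), adjusted p = 0.000204). JUNB measured 608, 705 and 599 FPKM in Control and 91.6 and 94.5 FPKM in Empty-BAL. ZFP36, which destabilises cytokine transcripts, measured 1454, 1552 and 1473 FPKM in Control and 205 and 149 FPKM in Empty-BAL. Their summed level was 4592 to 4877 FPKM in Control and 1011 and 781 FPKM in Empty-BAL, lower in both Empty-BAL libraries than in any Control library. FOSL1, another FOS family member, was the one that rose (3.9 to 4.9 against 15.9 and 10.3 FPKM, log2 difference 1.37 ± 0.28 (SE), adjusted p = 0.00478).

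Cytokine and chemokine genes gave 3 rises and 5 falls among 20, beside 24.4% and 29.3% of all genes. Their median of -0.35 became 0.18 with the rescaling. CXCL14, a chemokine of epithelia and stroma, measured 6.34, 7.81 and 8.01 FPKM in Control and 77.4 and 27.2 FPKM in Empty-BAL (log2 difference 2.49 ± 0.61 (SE), adjusted p = 0.0106). CCL21, a chemokine of lymphatic endothelium, measured 34.6, 32.3 and 29.4 FPKM in Control and 194 and 159 FPKM in Empty-BAL. CCL5, a T cell and NK cell chemokine, measured 18.4 to 21.8 against 74.7 and 67.2 FPKM. CCL4, of activated macrophages, fell (1476, 1519 and 1524 FPKM in Control and 30.4 and 42.4 FPKM in Empty-BAL, log2 difference -5.35 ± 0.47 (SE), adjusted p = 8.96e-05), and CSF1, the macrophage growth factor, fell (67.6, 77.8 and 71.4 FPKM in Control and 21 and 8.25 FPKM in Empty-BAL). IL6, the cytokine that primes regeneration, was not called, lying within the Control range in Empty-BAL-1 and under it in Empty-BAL-2 (4.93 to 7.68 against 5.99 and 1.16 FPKM, adjusted p = 0.297). CXCL14 was not called without Empty-BAL-1 (adjusted p = 0.0706). CCL21 was not called without Empty-BAL-1 (adjusted p = 0.0915), without Empty-BAL-2 (adjusted p = 0.0564) and without any one Control library (0.0537 to 0.0622). In the cytokine list, calls numbered 5 for higher levels without Empty-BAL-2.

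Interferon response genes showed no common direction, with 6 higher and 5 lower of 23, beside 24.4% and 29.3% of all genes. Their medians were 0.31 in Empty-BAL-1 and -0.40 in Empty-BAL-2. BST2, tetherin, which holds enveloped virus at the cell surface, measured 3.53, 3.46 and 3.47 FPKM in Control and 76.5 and 28.2 FPKM in Empty-BAL (log2 difference 3.41 ± 0.36 (SE), adjusted p = 0.000208). PSMB9 and PSMB8, catalytic subunits of the immunoproteasome, measured 4.15 to 5.03 against 38.7 and 14.9 FPKM and 14 to 19.3 against 97.1 and 44.8 FPKM. OAS2, a sensor of double-stranded RNA, fell (55.4 to 60.9 against 23.5 and 6.87 FPKM), as did the transcription factor IRF1 (84.4 to 97 against 36.2 and 21.7 FPKM). The list's median of -0.03 became positive, 0.14 with upper-quartile scaling and 0.63 with rescaling to the same sum. In the interferon response list, calls numbered 3 for lower levels without Control-1, Control-2, Control-3 or Empty-BAL-2. With Control averaged, limma called 0 of these genes, with 4 higher and 2 lower at an unadjusted p under 0.05. The same fit called 1 cytokine gene lower and, of lists above, 2 immediate early, 3 circadian, 3 liver transcription factor and 4 lipid synthesis genes lower and 1 ribosome biogenesis gene higher.

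Growth factor and receptor genes of regeneration fell in 11 of 16 and none rose (median log2 difference -1.43, -1.8 in Empty-BAL-1 and -1.49 in Empty-BAL-2). INHBC, a hepatocyte activin subunit, measured 30.1, 32.2 and 31.8 FPKM in Control and 0.133 and 0.579 FPKM in Empty-BAL (log2 difference -4.6 ± 0.36 (SE), adjusted p = 5.60e-05). IL6R, the interleukin 6 receptor, measured 24.8, 25.6 and 25.6 FPKM in Control and 2.46 and 3.58 FPKM in Empty-BAL. EREG, epiregulin, measured 12.4 to 13.4 against 1.16 and 3.42 FPKM. HGF, the main hepatocyte mitogen (2.92 to 3.92 against 9.03 and 3.83 FPKM), its receptor MET (6.52 to 6.85 against 0.752 and 5.5 FPKM), HBEGF (10.5 to 11.5 against 10.7 and 2.9 FPKM), IL6ST (20.0 to 20.8 against 22.1 and 14.2 FPKM) and FST (10.5 to 14.6 against 4.9 and 9.66 FPKM) were not called.

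Matrix genes rose in 15 of 19 (median log2 difference 1.57, 1.7 in Empty-BAL-1 and 1.07 in Empty-BAL-2). COL1A1, the main fibrillar collagen chain, measured 31.3, 29.6 and 29.9 FPKM in Control and 145 and 166 FPKM in Empty-BAL (log2 difference 2.32 ± 0.25 (SE), adjusted p = 0.000235). MMP2, gelatinase A, measured 9.91, 9.01 and 7.75 FPKM in Control and 76.1 and 123 FPKM in Empty-BAL (log2 difference 3.31 ± 0.55 (SE), adjusted p = 0.00179). COL6A1 measured 27.4, 26 and 25.8 FPKM in Control and 165 and 82.5 FPKM in Empty-BAL. Both Empty-BAL libraries were above Control for each of these. FN1, fibronectin, much of which hepatocytes secrete into plasma, fell (574, 535 and 571 FPKM in Control and 32.5 and 79.4 FPKM in Empty-BAL, log2 difference -3.43 ± 0.37 (SE), adjusted p = 0.000216), and POSTN, periostin, fell (28.7 to 30.4 against 15.3 and 15.3 FPKM). With Control averaged, 0 matrix genes were called higher by limma, while 9 had an unadjusted p under 0.05. Cytoskeleton genes rose in 14 of 17 and none fell (median log2 difference 2.04, 2.4 in Empty-BAL-1 and 1.46 in Empty-BAL-2), and in 5 with Control averaged. TUBA1B, an alpha tubulin, measured 21.8, 21.3 and 22.4 FPKM in Control and 182 and 231 FPKM in Empty-BAL. TUBB, a beta tubulin, measured 34.2, 32.3 and 31.7 FPKM in Control and 249 and 257 FPKM in Empty-BAL. The actin genes ACTB (1077 to 1189.6 against 1629 and 954 FPKM) and ACTG1 (1321 to 1367 against 1137 and 929 FPKM) and the tubulin gene TUBB6 (11 to 13.6 against 18.4 and 4.92 FPKM) were not called. In the matrix list, calls numbered 4 for lower levels without Empty-BAL-1. In the cytoskeleton list, calls numbered 2 for lower levels without Empty-BAL-1.

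Stellate cell and myofibroblast markers rose in 4 of 11 and fell in 1, with medians of 1.55 in Empty-BAL-1 and 0.13 in Empty-BAL-2 and summed levels of 635 to 686 FPKM in Control and 2173 and 827 FPKM in Empty-BAL. DCN, decorin, measured 8.4, 9.01 and 8.64 FPKM in Control and 39.4 and 30.4 FPKM in Empty-BAL (log2 difference 1.88 ± 0.53 (SE), adjusted p = 0.0185). TAGLN, a smooth muscle actin-binding protein, measured 130.2, 137 and 127 FPKM in Control and 944 and 226 FPKM in Empty-BAL. BGN, biglycan, measured 98.8 to 104 against 506 and 223 FPKM. In the stellate cell list, calls numbered 2 for higher levels without Control-1 or Empty-BAL-1 and 8 for higher levels without Empty-BAL-2. NGFR fell (31.6 to 33 against 21.3 and 5.04 FPKM, adjusted p = 0.0345). TAGLN was not called without Empty-BAL-1 (adjusted p = 0.0617) and without any one Control library (0.0567 to 0.0624). DCN was not called without Empty-BAL-1 (adjusted p = 0.0841) and without Control-1 (0.0505). NGFR was not called without Empty-BAL-2 (adjusted p = 0.151) and without any one Control library (0.0757 to 0.0801). Endothelial markers rose in 7 and fell in 4 of 20, beside 24.4% of all genes called higher and 29.3% lower. Their summed levels were 319 to 344 FPKM in Control and 1103 and 393 FPKM in Empty-BAL. EGFL7 measured 40.4, 48.1 and 44.9 FPKM in Control and 522 and 75.4 FPKM in Empty-BAL. ENG, endoglin, measured 17.9, 19.1 and 18.7 FPKM in Control and 121 and 43.2 FPKM in Empty-BAL. VWF, the platelet-tethering factor, measured 1.62, 1.31 and 1.58 FPKM in Control and 16.6 and 4.92 FPKM in Empty-BAL. The higher value was in Empty-BAL-1 for all 3. ICAM1, an adhesion molecule, fell (57.7 to 68 against 15.3 and 15.5 FPKM) and OIT3, of liver sinusoidal endothelium, fell (13.8 to 15.1 against 4.31 and 5.04 FPKM), so endothelial genes did not move as one. In the endothelial list, calls numbered 4 for higher levels without Control-1, Control-2 or Empty-BAL-1 and 11 for higher levels without Empty-BAL-2. The endothelial calls without Empty-BAL-1 included 5 lower. EGFL7 was not called without Empty-BAL-1 (adjusted p = 0.104) and without any one Control library (0.0711 to 0.0831).

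Macrophage markers rose in 10 of 17 and fell in 1 (median log2 difference 1.46, 1.85 in Empty-BAL-1 and 1.61 in Empty-BAL-2). MARCO, a scavenger receptor of Kupffer cells, measured 6.39, 5.29 and 5.4 FPKM in Control and 179 and 56.4 FPKM in Empty-BAL (log2 difference 3.93 ± 0.41 (SE), adjusted p = 0.000202). GPNMB, a glycoprotein of lipid-laden macrophages, measured 3.84, 4.33 and 5.16 FPKM in Control and 65.2 and 102 FPKM in Empty-BAL (log2 difference 3.93 ± 0.63 (SE), adjusted p = 0.00147). CD163, the haptoglobin-hemoglobin receptor, measured 12.8, 13.1 and 12 FPKM in Control and 84 and 108 FPKM in Empty-BAL (log2 difference 2.82 ± 0.16 (SE), adjusted p = 1.54e-05). Each was above Control in both libraries. TREM2 measured 0, 0.122 and 0 FPKM in Control and 6.61 and 9.45 FPKM in Empty-BAL. These genes were named among called genes, so their lack of overlap with Control is not a further result. CD14, a lipopolysaccharide co-receptor that hepatocytes also express, fell (680.0 to 752 against 90.8 and 167 FPKM, log2 difference -2.52 ± 0.49 (SE), adjusted p = 0.00353), and the complement C1q genes C1QA (52.9 to 59.8 against 27.1 and 104 FPKM), C1QB (137 to 159.9 against 145 and 296 FPKM) and C1QC (173 to 179 against 161 and 337 FPKM) were not called. Summed over the list the levels overlapped, at 1134 to 1237 FPKM in Control and 1147 and 1415 FPKM in Empty-BAL. LYZ, a lysozyme gene, measured 1.8, 2.61 and 1.61 FPKM in Control and was listed at 0 in both Empty-BAL libraries. With Control averaged, 3 macrophage markers were called higher.

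Of 10 neutrophil markers found, 6 passed the filter, 5 of them only through libraries other than Control, so their number called is not read as a result. Their summed levels were 1.23 to 2.48 FPKM in Control and 633 and 109 FPKM in Empty-BAL. Most of the Empty-BAL sums came from S100A12 (443 and 63 FPKM) and S100A8 (175 and 27.6 FPKM), already named among the leading rises. CSF3R, the G-CSF receptor, measured 0.327, 0.464 and 0.331 FPKM in Control and 8.38 and 9.9 FPKM in Empty-BAL (log2 difference 2.88 ± 0.13 (SE), adjusted p = 5.57e-06). TREM1 measured 0.223, 0.189 and 0.102 FPKM in Control and 5.58 and 1.68 FPKM in Empty-BAL. T and NK cell markers rose in 5 of 14 and fell in 2, beside 24.4% and 29.3% of all genes. Their summed levels were 36.8 to 38.1 FPKM in Control and 111 and 106 FPKM in Empty-BAL, where GNLY and NKG7 together held most of each sum. GNLY, granulysin, a cytotoxic granule protein, measured 1.96, 0.205 and 0 FPKM in Control and 14.2 and 42.1 FPKM in Empty-BAL (log2 difference 4.07 ± 0.64 (SE), adjusted p = 0.00133). NKG7 measured 6.55, 6.78 and 5.25 FPKM in Control and 53.4 and 25.9 FPKM in Empty-BAL (log2 difference 2.42 ± 0.30 (SE), adjusted p = 0.00043), while CD3E, a chain of the T cell receptor complex, differed less (2.37 to 3.61 against 6.37 and 4.7 FPKM). GZMK (1.07 to 1.87 against 0.441 and 0.54 FPKM) and CD3D (0.907 to 1.54 against 0.604 and 0.641 FPKM) fell. CD3E was not called without Empty-BAL-1 (adjusted p = 0.125) and without Control-1 or Control-3 (0.0521 to 0.0808). CD3D was not called without Empty-BAL-1 (adjusted p = 0.092), without Empty-BAL-2 (adjusted p = 0.0647) and without Control-1 or Control-3 (0.0791 to 0.095). In the T and NK cell list, calls numbered 3 for higher levels without Control-1 or Empty-BAL-1. Of 7 B and plasma cell markers 3 rose, among them MZB1 of plasma cells (2.36, 3.02 and 3.0 FPKM in Control and 15.4 and 36.7 FPKM in Empty-BAL). In the B and plasma cell list, calls numbered 1 for higher levels without Control-1 or Control-3 and 2 for lower levels without Empty-BAL-2.

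Class II antigen presentation genes rose in 5 of 6, with summed levels of 553 to 568 FPKM in Control and 1804 and 1253 FPKM in Empty-BAL. Most of the sum in every library came from CD74. CD74, the invariant chain, measured 481, 472 and 481 FPKM in Control and 1661 and 1104 FPKM in Empty-BAL (log2 difference 1.5 ± 0.34 (SE), adjusted p = 0.00705). CIITA, the class II transactivator, measured 2.85 to 3.4 against 11 and 4.23 FPKM. CIITA was not called without Empty-BAL-1 (adjusted p = 0.237) and without any one Control library (0.0842 to 0.11). In the class II list, calls numbered 3 for higher levels without Control-2, Control-3 or Empty-BAL-1. Cholangiocyte and progenitor markers rose in 4 of 10 and fell in 2. KRT7, a bile duct keratin, measured 8.63, 9.66 and 8.38 FPKM in Control and 80.0 and 105 FPKM in Empty-BAL (log2 difference 3.23 ± 0.30 (SE), adjusted p = 0.000113). SPP1, osteopontin, which macrophages also make, measured 23.1, 25.1 and 24.6 FPKM in Control and 527 and 183 FPKM in Empty-BAL (log2 difference 3.63 ± 0.39 (SE), adjusted p = 0.000212). EPCAM measured 2.42, 1.6 and 2.3 FPKM in Control and 13.3 and 10.3 FPKM in Empty-BAL. CLDN4, a tight junction protein, fell (96.2 to 102 against 23.8 and 49.3 FPKM). All of these cell type lists are read beside a summed hepatocyte marker level that was lower in both Empty-BAL libraries, and the part of cell composition in any rise was not tested. Array weights called 2 class II genes and 1 T and NK cell marker higher. With Control averaged, limma called 0 class II, T and NK cell, B cell, endothelial or stellate cell markers and 1 cholangiocyte marker, which was higher. At an unadjusted p under 0.05 that fit had 1 class II gene higher, 3 T and NK cell markers higher and 1 lower, 1 B cell marker higher, 2 endothelial markers higher and 3 lower, and 1 stellate cell marker higher.

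**Figure D4:**
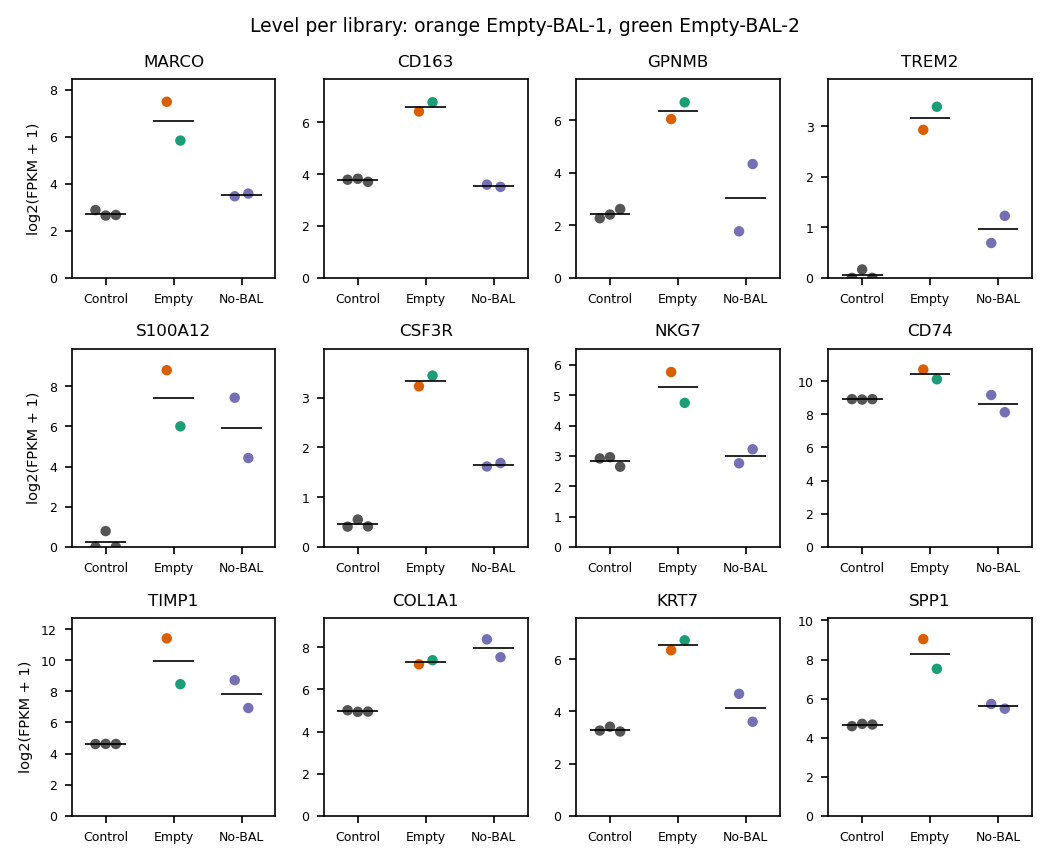
Level in log2(FPKM + 1) per library of 12 named genes of macrophages, neutrophils, NK cells, antigen presentation, matrix and bile duct, with groups, colours and mean bars as in the plot of hepatocyte and cell cycle genes. Both Empty-BAL points lie above all 3 Control points in every panel, and for MARCO, CD163, NKG7 and KRT7 also above both No-BAL points. The panels were picked among genes that rose, so their place above Control came from that choice. Members of the same lists that fell, among them CD14, LYZ, GZMK, CD3D, FN1, POSTN and CLDN4, are not shown.

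Iron and heme genes fell in 8 of 10 and none rose. ALAS1, the first enzyme of heme synthesis, measured 666, 674 and 664 FPKM in Control and 12.8 and 94 FPKM in Empty-BAL (log2 difference -4.21 ± 0.67 (SE), adjusted p = 0.00139). TFR2, an iron sensor of hepatocytes, measured 635, 643 and 602 FPKM in Control and 92.2 and 32.3 FPKM in Empty-BAL. SLC40A1, ferroportin, the iron exporter, measured 59.7, 55.7 and 57.2 FPKM in Control and 3.73 and 12.7 FPKM in Empty-BAL. FTL, ferritin light chain, was not called (3849.6 to 4192 against 3474 and 4431 FPKM). With Control averaged, limma called 0 of the list lower, with 7 at an unadjusted p under 0.05. Blood cell markers differed between the Empty-BAL libraries. HBB, beta globin, measured 180.0, 153 and 175 FPKM in Control and 151 and 4.49 FPKM in Empty-BAL (adjusted p = 0.13). The platelet gene PPBP was listed at 0 in Control and at 17.4 and 2.51 FPKM in Empty-BAL, and ITGA2B fell (14 to 15.2 against 6.15 and 5.0 FPKM).

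The difference between the 2 empty-device libraries was large and has no replicate. Where the Empty-BAL mean reached 10 FPKM, the largest excess in Empty-BAL-2 was in HAMP (4.39 and 328 FPKM), followed by CYP1A1 (chr7:58802887-58809155), an aryl hydrocarbon receptor target, at 39.7, 39.5 and 41.6 FPKM in Control and 0.582 and 67.8 FPKM in Empty-BAL. APOA4, an apolipoprotein, measured 847, 875 and 838 FPKM in Control and 7.93 and 284 FPKM in Empty-BAL. AKR1C2, a steroid reductase, measured 141, 139.5 and 136 FPKM in Control and 2.81 and 110.1 FPKM in Empty-BAL. In Empty-BAL-2 AKR1C2 was near Control and CYP1A1 above it, while both were close to 0 or low in Empty-BAL-1. APOA4 was not called without Empty-BAL-1 (adjusted p = 0.121) and without any one Control library (0.0678 to 0.0699). The largest excesses in Empty-BAL-1 included the entries for the small nuclear RNAs U4 (81.6 and 0 FPKM) and U1 (49.3 and 0 FPKM), both listed at 0 in Control and in Empty-BAL-2. Also among them were CDC42EP5, a Cdc42 effector (13.9, 1.19 and 9.66 FPKM in Control and 120.4 and 4.54 FPKM in Empty-BAL), and H1-4, a linker histone (1.28, 0.194 and 0.418 FPKM in Control and 23.7 and 0.654 FPKM in Empty-BAL).

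By list, Empty-BAL-1 was lower for urea cycle genes (median difference from Empty-BAL-2 of -1.64 log2 units, with 0 of 10 members higher) and for liver transcription factors (-0.83, 2 of 16). It was higher for endothelial (0.79, 17 of 20) and interferon response genes (0.73, 21 of 23). Mitosis genes were near equal (0.10, 14 of 25). Empty-BAL-1 correlated with the Control libraries at r = 0.686 to 0.688 across genes and Empty-BAL-2 at 0.806 to 0.807. These values describe 2 libraries and carry no test.

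The empty-device livers were also set against failed livers with no device, which were sampled on another day (day 2). Against No-BAL, 4146 genes (34.0%) passed, 1535 (12.6%) higher and 2611 (21.4%) lower in Empty-BAL, with a median over all genes of -0.14. With only these 4 libraries in the fit no gene passed by limma, while 2659 had an unadjusted p under 0.05. Array weights, which let the spread differ between libraries, called 324 genes, and averaging called 0, with 2653 at an unadjusted p under 0.05. Without Empty-BAL-2 the count was 6679.

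In the fit of all 10 libraries, immune lists differed in their share called higher in Empty-BAL than in No-BAL, beside 12.6% of all genes. Macrophage markers were called higher in 14 of 17 (median 2.2), T and NK cell markers in 13 of 14 (1.74) and class II genes in 6 of 6 (1.82). The share was smaller for B and plasma cell markers (4 of 7, 0.95), cytokine and chemokine genes (10 of 20, 1.52) and neutrophil markers (2 of 6, 1.43). No member of these lists was called lower. With only the No-BAL and Empty-BAL libraries in the fit, none of these genes was called. CD209, a lectin of macrophages and dendritic cells, measured 37.4 and 53.9 FPKM in Empty-BAL and 0.588 and 0.946 in No-BAL (log2 difference 4.71 ± 0.29 (SE), adjusted p = 0.000358). GNLY measured 14.2 and 42.1 FPKM in Empty-BAL and 1.81 and 0 in No-BAL (log2 difference 3.93 ± 0.70 (SE), adjusted p = 0.00758). LY86, the secreted partner of a toll-like receptor homologue, measured 69.1 and 40.8 FPKM in Empty-BAL and 5.29 and 3.12 in No-BAL. CLEC4G, of sinusoidal endothelium, measured 36.8 and 97.4 FPKM in Empty-BAL and 7.65 and 2.29 in No-BAL. These genes were picked among called genes with no overlap between the 2 groups, so lack of overlap is not a further result. CLEC4G was under its Control level of 203 to 233 FPKM in both groups. Hepatocyte lists differed in their share of genes called lower, beside 21.4% of all genes. The counts were 15 of 20 for fatty acid oxidation, 17 of 21 for lipid synthesis, 13 of 19 for coagulation, 11 of 16 for transcription factors, 9 of 14 for gluconeogenesis and 7 of 13 for bile acid transport. They were 3 of 8 for acute phase, 8 of 23 for amino acid, 7 of 23 for plasma carrier, 3 of 10 for urea cycle and 4 of 16 for drug metabolism genes, with none higher in any of these lists. Bile acid synthesis had 3 lower and 1 higher of 9, and complement 3 lower and 3 higher of 16. Mitosis genes were lower in 13 of 25 and ribosome biogenesis genes in 16 of 19.

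Among the wide gaps downward was MFSD2A, a lysophospholipid transporter, at 0.916 and 21.3 FPKM in Empty-BAL and 177 and 231 in No-BAL (log2 difference -4.96 ± 0.92 (SE), adjusted p = 0.00843). ITIH4 measured 177 and 225 FPKM in Empty-BAL and 8356 and 2906 in No-BAL (log2 difference -4.62 ± 0.46 (SE), adjusted p = 0.00154). GSTA1, a glutathione transferase, measured 29.4 and 224 FPKM in Empty-BAL and 1957 and 1604 in No-BAL. APOA4 measured 7.93 and 284 FPKM in Empty-BAL and 481 and 2391 in No-BAL. ITIH4 was above its Control range of 766 to 772 FPKM in both No-BAL libraries and under it in both Empty-BAL libraries. APOA4 and GSTA1 in Empty-BAL were also under Control, while in No-BAL they overlapped or spanned it.

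**Figure D5:**
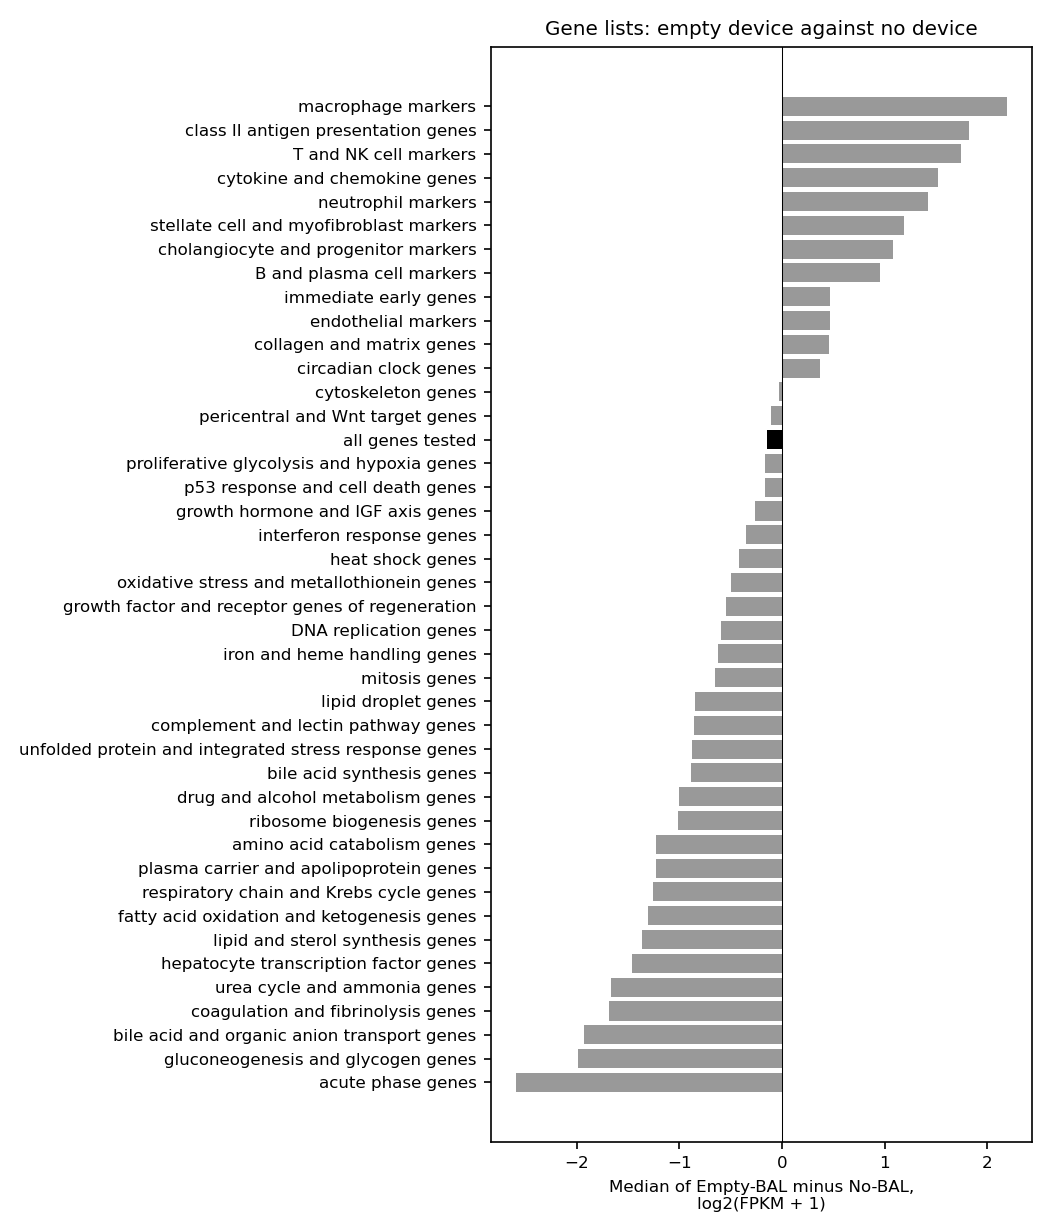
Bars give, for each gene list, the median over tested members of the Empty-BAL mean minus the No-BAL mean in log2(FPKM + 1), with 2 libraries a group. Macrophage markers (2.2) lie furthest to the right, acute phase genes (-2.6) furthest to the left, and all tested genes (black bar) at -0.14.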

How the data were processed

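RNA of pig liver was sequenced as paired 150 bp reads on an Illumina HiSeq from TruSeq libraries, per the labels' protocols. The authors deposited FPKM per gene for 10 libraries. The submitters' processing notes name Sscrofa11.1 and mm10 as builds and Cufflinks, HISAT2 and HTSeq as tools, without roles. FPKM values were not whole multiples of a common step, so read counts and depth are unknown and no interval for counting error is given.

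Values were transformed to log2(FPKM + 1), a scale that understates changes of low genes, and kept at 1 FPKM or more in 2 or more libraries. limma 3.58.1 (R 4.3.3) was fitted to all 10 libraries with 5 group means and an intensity trend (5 residual degrees of freedom), with Benjamini-Hochberg adjustment at 0.05. This pools the tight Control spread with the wide Empty-BAL spread. Scripts were tested on simulated data. Gene symbols came with the table for 16497 genes and from a RefSeq table for 851. Tested genes without a symbol numbered 1242. Coordinates are RefSeq gene spans on Sscrofa11.1, matched by symbol. No sequences are shown.

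Of 729 genes in 44 lists, 656 were found and 628 tested. The members and lists were chosen with earlier results of these data known. Named genes were the 15 largest rises and 15 largest falls (called, both Empty-BAL values outside the Control range on the same side, mean of 10 FPKM or more), up to 5 called members per list with the largest change (the 2 most abundant where none was called), 8 each way for the difference between the Empty-BAL libraries, 6 each way against No-BAL, ALB and AFP; some of these genes are not reported here. Replicate numbers were not used to pair the samples, because no label ties them. Alternatives tried were other pseudocounts, filters, scalings, array weights, averaging, a replicate block, fewer libraries in the fit and leaving out each library.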

Additional observations from a re-analysis of the deposited data

How the results depend on the processing

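Against Control, 6540 genes were called, 2967 higher and 3573 lower. Averaging Control and the day 8 libraries each to 1 sample (2 residual degrees of freedom) left 689 (163 higher, 526 lower), 687 of them among the 6540. Array weights left 3688 (1443 higher, 2245 lower). The replicate block left 3737 (1572 higher, 2165 lower). In both comparisons that fit also lacked the cell-filled device libraries (2 residual degrees of freedom), so the part of the block itself was not tested. Rescaling to a common sum gave 5670 higher and 1657 lower. Leaving out 1 library at a time gave 5181 to 7652 in all, 2272 to 3681 higher and 2909 to 3971 lower. Other pseudocounts, filters and scalings, no trend, and a fit of only these 5 libraries (6079) kept the total within 1.5 times.

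Against No-BAL, 4146 genes were called, 1535 higher and 2611 lower. Averaging, or fitting only these 4 libraries, left 0 in either direction (2653 and 2659 at an unadjusted p under 0.05 by limma). Array weights left 324 (137 higher, 187 lower) and the replicate block 407 (284 higher, 123 lower). Rescaling to a common sum gave 2512 higher and 458 lower, and upper-quartile scaling 1277 lower. Leaving out 1 library gave 3081 to 6679 in all, 1080 to 2910 higher and 2001 to 3769 lower, the highest without Empty-BAL-2.

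No label ties same-numbered libraries, and whether they pair cannot be decided here with only 2 numbers. Deviations from the group mean of same-numbered Control and Empty-BAL libraries correlated at 0.01 and -0.01. In groups of 2 libraries such deviations are mirror images, so the No-BAL and Empty-BAL pairs give a single value, 0.14. The log2 difference turned its sign between the fits without Empty-BAL-2 and without Empty-BAL-1 in 18 of the 283 genes followed across alternatives, among them HAMP (-2.93 and 3.001), SDS (-0.375 and 2.73), TUBB6 (0.507 and -1.20), CYP1A1 (-4.71 and 0.738), C1QA (-1.005 and 0.900), ARG1 (-4.63 and 0.66), CDC42EP5 (4.11 and -0.34) and APOA2 (-4.50 and 0.085). It reversed with libraries rescaled to a common sum for IGFBP2 (0.056), STAT5B (0.20), PDK1 (0.04), POLR1A (0.28), IL6ST (0.61) and FTL (0.78), where all genes shift upwards. For the other changes of call the cause was not tested. Both Empty-BAL libraries lay beyond Control for 8852 of 12180 genes (34.2% above and 38.5% below), and for 8887 to 9574 with other scalings. With 1 Control library left out the number was 9168 to 9218. Other filters changed the gene set, giving 11748 of 21549 genes with no filter and 7902 of 10813 with the stricter filter. Depth is unknown, so low FPKM values have no stated precision.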
